A study of Mus musculus with 6 samples.

Results

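Transcripts of 10 genes of the ATF4 and unfolded protein stress responses were followed in mouse hearts, namely Atf4, Atf5, Ddit3, Trib3, Asns, Chac1, Gdf15, Hspa5, Xbp1 and Mthfd2. They were chosen by name, through the Ensembl identifiers of the deposited table, and all 10 were among its 16018 genes. RNAseq had been performed on the hearts of 3 female KOb/c mice and 3 female WT mice that were between 4 and 5 weeks old. KOb/c mice lack the B and C variants of NBCe1, the electrogenic sodium bicarbonate cotransporter encoded by Slc4a4, in the whole animal rather than in the heart alone, and they keep the NBCe1-A variant. Both genotypes were bred from heterozygous parents on a C57BL/6J background, and neither was treated. The comparison asks which transcripts differ in the heart when NBCe1-B and NBCe1-C are lost.

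The integrated stress response begins with kinases that phosphorylate the translation factor eIF2. Bulk protein synthesis then slows while the Atf4 transcript is translated more, and the ATF4 protein switches on genes for amino acid synthesis, transport and stress signalling. The unfolded protein response of the endoplasmic reticulum (ER) shares the kinase PERK with it and has a pair of further sensors, IRE1, which splices the Xbp1 transcript, and ATF6, and together they raise chaperones such as BiP. RNAseq counts show the amounts of these transcripts, and neither the translation of Atf4 nor the splicing of Xbp1 was measured.

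Values are normalised read counts, which are reads per gene divided by a factor for each library, and n = 3 for each genotype throughout, with the SD as the error. The libraries held 42619258 to 49100802 reads on genes in KOb/c and 41364857 to 42037397 in WT mice. Hearts are listed in the order of their replicate numbers. Slc4a4 itself was at 264.0, 944.8 and 268.7 normalised counts in KOb/c and at 675.1, 822.2 and 788.8 in WT hearts. KOb/c replicate 2, as it is labelled, was therefore above every WT library in the targeted gene, so each member is also given without it. All 7 cardiomyocyte markers were in the table, as were all 6 fibroblast, 5 endothelial and 6 macrophage markers, and none of the 4 liver markers was. The summed cardiomyocyte markers were 2470832 to 2776626 normalised counts in KOb/c and 2105804 to 2236130 in WT hearts. Of these 7 markers, 3 were higher and 2 lower in every KOb/c heart. The endothelial sum was also above WT in every KOb/c heart (39067 to 41994 against 35559 to 37658), and the macrophage sum was below it (6244 to 7055 against 7168 to 7834), with 2 of 5 endothelial markers higher and 2 of 6 macrophage markers lower in every KOb/c heart. The part of these cell type differences in the results below was not tested, and in whole hearts fewer cells of a type and less RNA per cell cannot be told apart.

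Hspa5 was the most abundant of the 10 transcripts per unit length. It encodes BiP, the main chaperone of the ER lumen, and averaged 6504 normalised counts per kb of its longest transcript over the 6 libraries. Atf4 followed at 1969, Atf5 at 1570 and Xbp1 at 1452 normalised counts per kb, and each of these 3 overlapped its neighbour in the order. Ddit3 came next at 617 normalised counts per kb, apart from the genes on either side of it. Chac1, at 153 normalised counts per kb, overlapped Mthfd2, at 83.2, which overlapped Trib3, at 71.9, which in turn overlapped Asns, at 59.1. Gdf15 was lowest, at 23.0 normalised counts per kb, below Asns in every library. The order covers transcription factors, enzymes and a secreted hormone, and it places the ER chaperone far above the stress-induced enzymes.

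To place the members beside the sequences that ATF4 and the ER stress factors are known to bind, the promoters of RefSeq (GRCm38.p6, 250 bases before to 50 after the annotated start) were searched on both strands. All 10 members had a promoter there. The letters TGATGNAA, the element that ATF4 and C/EBP proteins bind together, were in the promoters of 3 members, Trib3, Asns and Chac1, and in 3.97% of all 32851 promoters. The ER stress element ERSE, in which CCAAT and CCACG stand 9 bases apart, was in the promoter of Hspa5 and in 0.119% of all promoters. TGACGTGG, which XBP1 and ATF6 are known to bind, was in no member's promoter and in 0.676% of all promoters. The windows of 30 bases below are written 5′ to 3′ on the strand of the gene, with the matched letters in capitals. They are shown because these are the 4 members with a match.
Trib3, chr2:152344028-152344057, minus strand, match in reverse orientation at positions 15 to 22 from the start: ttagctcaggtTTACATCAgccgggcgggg
Asns, chr6:7693214-7693243, minus strand, match at positions -23 to -16 from the start: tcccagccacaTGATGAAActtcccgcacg
Chac1, chr2:119351038-119351067, plus strand, match in reverse orientation at positions -193 to -186 from the start: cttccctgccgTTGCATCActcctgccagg
Hspa5, chr2:34772020-34772049, plus strand, match at positions -65 to -47 from the start: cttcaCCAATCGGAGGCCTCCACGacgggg
Positions are counted from the RefSeq starts, which differ from the ends of the GENCODE M21 genes given with each member below. In the GENCODE genes the matches of Asns and Hspa5 lie inside and those of Trib3 and Chac1 outside. A match describes the letters only. The other 6 members held none of the 3 motifs in this window, and elements outside it were not searched.

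Of the 10 genes, 8 had a lower mean in KOb/c than in WT hearts and 2, Chac1 and Hspa5, a higher one, while 50.8% of all genes tested had a negative log2 fold change. The median log2 fold change of the members, KOb/c minus WT on log2(normalised count + 1), was -0.31, and that of all genes was -0.004. None of the members passed limma at an adjusted p of 0.05, and neither did any of the 16016 genes tested (0.0%). At an unadjusted limma p under 0.05, 6 of the 10 members and 3764 of the 16016 genes were counted. edgeR on the recovered reads called 0 members and 0 genes. All 3 KOb/c hearts were below all 3 WT hearts in 4 members, Ddit3, Asns, Xbp1 and Mthfd2, against a background of 14.6% of genes. In no member were all KOb/c hearts above all WT hearts, against a background of 15.6%. DESeq2, the tool named in the submitters' processing notes, called 3 members lower on the recovered reads, Atf4, Ddit3 and Xbp1. Of the 11979 genes that it gave an adjusted p, 5.03% were called lower. It called 1 member higher, Chac1, beside 8.22% of the same 11979 genes. Gdf15 received no adjusted p in this fit. Without KOb/c replicate 2, the median of the members was again -0.31. DESeq2 then called 2 of them, Chac1 and Xbp1, beside 1195 of all genes tested.

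**Figure D1:**
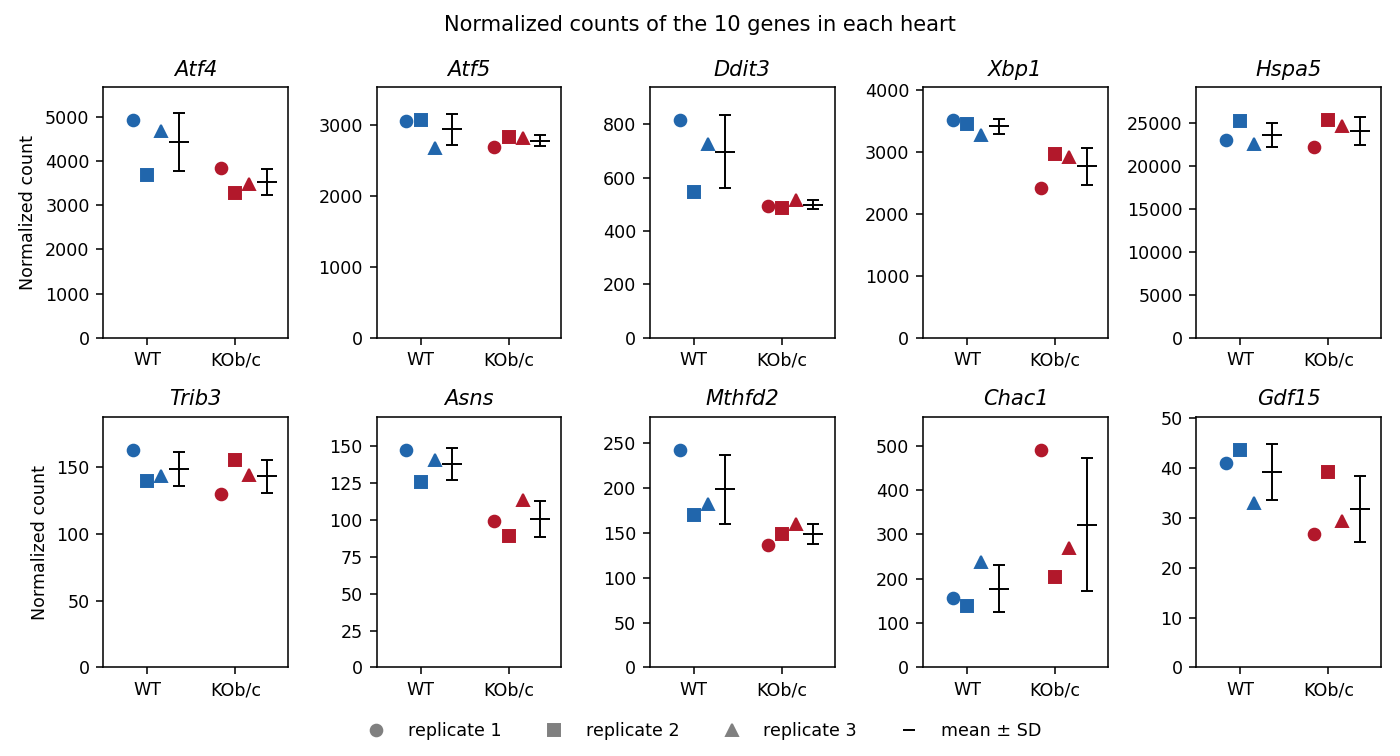
Normalised read counts of each of the 10 genes in the 3 WT and 3 KOb/c hearts, one panel per gene with its own vertical axis; coloured marks are single hearts, with a shape for each replicate number, and black marks are the group mean ± SD. The genotypes stand apart in Ddit3, Asns, Xbp1 and Mthfd2, and 1 KOb/c heart, at 491.3 normalised counts of Chac1, stands above the other 5.

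Atf4 encodes the transcription factor at the centre of the integrated stress response (ENSMUSG00000042406, GRCm38 chr15:80255184-80257541, plus strand). Normalised counts of Atf4 were 3839.8, 3270.8 and 3472.9 in KOb/c and 4927.5, 3675.7 and 4669.0 in WT hearts. WT replicate 2 was below KOb/c replicate 1, so the genotypes overlapped, although the other WT hearts were above every KOb/c heart. The means were 3528 ± 288 in KOb/c and 4424 ± 661 in WT hearts, a ratio of 0.797. The log2 fold change was -0.32 (SE 0.11, 95% CI -0.58 to -0.06, limma adjusted p = 0.143), and DESeq2 gave an adjusted p of 0.0431. Leaving out KOb/c replicate 2 gave -0.27. Counting error is 1.59% of a value of Atf4, and the coefficient of variation was 8.18% in KOb/c and 14.9% in WT hearts.

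Ddit3 (ENSMUSG00000025408, chr10:127290774-127296288, plus strand) encodes CHOP, a factor that ATF4 induces and that promotes cell death when ER stress lasts. It was at 493.2, 484.8 and 517.0 normalised counts in KOb/c and at 816.5, 547.8 and 727.0 in WT hearts. Every KOb/c heart was below every WT heart, by a narrow gap to WT replicate 2. The KOb/c hearts lay close together, at 498 ± 16.7, and the WT hearts were spread, at 697 ± 137. The log2 fold change of -0.46 (SE 0.14, 95% CI -0.78 to -0.15) had an adjusted p of 0.107 in limma and of 0.0184 in DESeq2. An exact permutation test of Ddit3 gave p = 0.1, two-sided, the smallest that 3 against 3 hearts allow. Without KOb/c replicate 2 the value was -0.44. A further annotated Ddit3 entry overlaps this gene on the same strand by 2925 bases and was not in the table, and Mars overlaps it by 68 bases on the opposite strand.

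Atf5, a relative of Atf4 that is also controlled through translation (ENSMUSG00000038539, chr7:44812256-44816658, minus strand), did not separate the genotypes. It was at 2682.6, 2823.2 and 2808.7 normalised counts in KOb/c and 3053.8, 3064.5 and 2672.7 in WT hearts. WT replicate 3 was the lowest of all 6 hearts, while the other WT hearts were the highest. Its log2 fold change was -0.08 (95% CI -0.24 to 0.09, limma adjusted p = 0.558), and -0.09 without KOb/c replicate 2. Atf5 shares 571 bases with Nup62 on the opposite strand, and whether the counting used strand is not given in the sources used here.

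Trib3 encodes a pseudokinase that ATF4 and CHOP induce and that dampens their action (ENSMUSG00000032715, chr2:152337422-152344032, minus strand). Its normalised counts were 130.0, 155.1 and 143.7 in KOb/c and 162.9, 139.3 and 143.3 in WT hearts. The highest heart was a WT and the lowest a KOb/c heart, and the others were mixed. The coefficient of variation was 8.78% in KOb/c and 8.5% in WT hearts, near the counting error of 8.28% of a value at this depth. This gave a log2 fold change that was -0.06 (95% CI -0.37 to 0.26, limma adjusted p = 0.849), and -0.12 without KOb/c replicate 2. Trib3, Asns and Chac1 hold the element shown above, and the 95% interval of Trib3 overlapped those of Asns and Chac1. The intervals of Asns (-0.81 to -0.10) and Chac1 (0.07 to 1.51) did not overlap each other.

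Among the enzymes, Asns, the asparagine synthetase that amino acid shortage induces through ATF4 (ENSMUSG00000029752, chr6:7675169-7693254, minus strand), was lower in each KOb/c heart. Its normalised counts were 99.2, 88.9 and 113.5 in KOb/c and 147.5, 125.8 and 140.2 in WT hearts. The highest KOb/c heart was below the lowest WT heart, by about the counting error of 9.16% of a value. The means of 101 ± 12.4 and 138 ± 11.1 gave a ratio of 0.729 and a log2 fold change of -0.46 (SE 0.16, 95% CI -0.81 to -0.10, limma adjusted p = 0.13). DESeq2 gave an adjusted p of 0.151, and without KOb/c replicate 2 the log2 fold change was -0.37.

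Mthfd2 (ENSMUSG00000005667, chr6:83305691-83325908, minus strand), a mitochondrial enzyme of one-carbon metabolism that is low in most adult tissues, followed the same order. It was at 137.0, 148.9 and 159.6 normalised counts in KOb/c and at 242.8, 170.5 and 182.5 in WT hearts. The genotypes did not overlap, but WT replicate 1 stood well above the other WT hearts. The means were 148 ± 11.3 and 199 ± 38.7, with a log2 fold change of -0.40 (SE 0.16, 95% CI -0.77 to -0.04, limma adjusted p = 0.18). Without WT replicate 1 the value was -0.25, and without KOb/c replicate 2 it was -0.41. Gm43890, an annotated transcript that still awaits experimental support, covers 2799 bases of Mthfd2 on the same strand and was not in the table.

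Chac1 had the largest positive log2 fold change of the members. It encodes an enzyme that degrades glutathione and is a target of ATF4 (ENSMUSG00000027313, chr2:119351229-119354381, plus strand). The hearts held 491.3, 204.7 and 269.6 normalised counts of it in KOb/c and 156.7, 139.3 and 238.2 in WT hearts. KOb/c replicate 1 was the highest of all hearts by far, KOb/c replicate 3 was above every WT heart, and KOb/c replicate 2 was below WT replicate 3. The means were 322 ± 150 and 178 ± 52.8, a ratio of 1.81. The log2 fold change was 0.79 (SE 0.32, 95% CI 0.07 to 1.51), with an adjusted p of 0.179 in limma and of 0.0332 in DESeq2. It was 0.44 without KOb/c replicate 1 and 1.07 without KOb/c replicate 2.

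Gdf15, a secreted stress hormone that acts on the brainstem to lower food intake (ENSMUSG00000038508, chr8:70629393-70632456, minus strand), was scarce in all hearts. It was at 26.8, 39.3 and 29.3 normalised counts in KOb/c and 41.0, 43.7 and 33.0 in WT hearts. These rest on 27 to 42 reads, for which counting error alone is 16.8% of a value, and the genotypes overlapped. The log2 fold change was -0.30 (95% CI -0.87 to 0.26, limma adjusted p = 0.501), and -0.46 without KOb/c replicate 2. No difference in Gdf15 was detectable at this depth.

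Of the ER genes, Hspa5 (ENSMUSG00000026864, chr2:34771970-34777547, plus strand) was measured most precisely. Its normalised counts were 22298.4, 25409.6 and 24662.5 in KOb/c and 23046.5, 25252.6 and 22635.7 in WT hearts. The lowest and the highest heart were both KOb/c hearts, and the genotypes overlapped over most of the range. Hspa5 had a log2 fold change that was 0.03 (SE 0.08, 95% CI -0.15 to 0.21, limma adjusted p = 0.864), and its sign changed to -0.01 without KOb/c replicate 2. Hspa5 holds the ER stress element shown above, and its 95% interval is narrower than that of Ddit3, Asns, Chac1 or Mthfd2.

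Xbp1 (ENSMUSG00000020484, chr11:5520659-5525893, plus strand), the transcript that IRE1 splices to give an active transcription factor, was lower in each KOb/c heart. Its normalised counts were 2422.6, 2963.8 and 2912.4 in KOb/c and 3517.9, 3454.3 and 3280.1 in WT hearts. The WT hearts lay close together and above all KOb/c hearts, and KOb/c replicate 1 was the lowest. The means were 2766 ± 299 and 3417 ± 123, a ratio of 0.809. The log2 fold change of -0.31 (SE 0.09, 95% CI -0.51 to -0.11) had an adjusted p of 0.0958 in limma and of 0.0225 in DESeq2. Xbp1 had the lowest adjusted p of the 10 members in limma, and leaving out KOb/c replicate 2 gave -0.36.

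**Figure D2:**
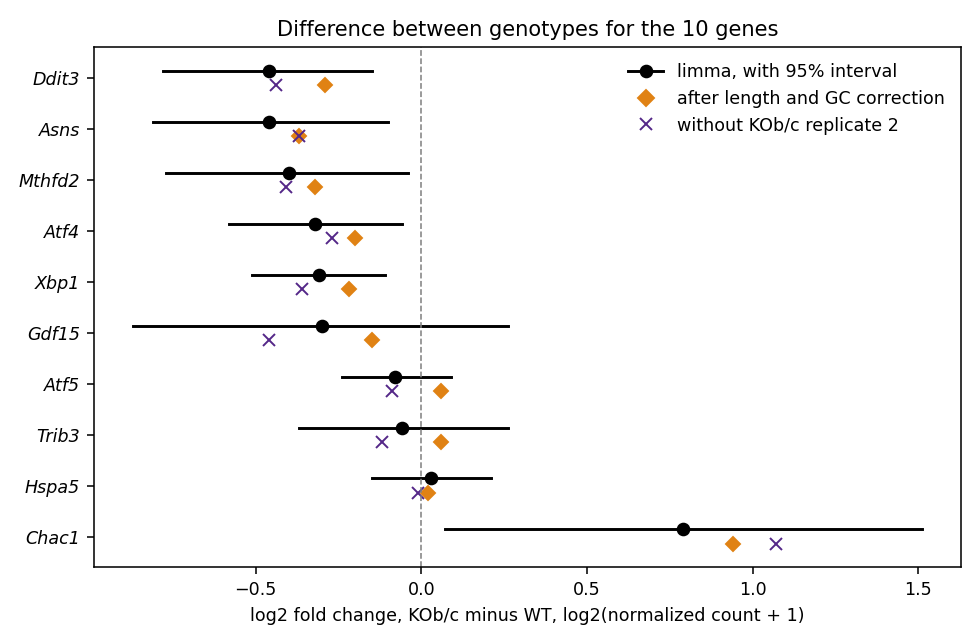
Log2 fold change (KOb/c minus WT) of each of the 10 genes, with 95% confidence intervals from limma (points and lines), its value after the length and GC correction (diamonds) and its value without KOb/c replicate 2 (crosses). The interval of Chac1 lies above 0 (0.07 to 1.51), those of Ddit3, Asns, Mthfd2, Atf4 and Xbp1 lie below it, and those of Hspa5, Trib3, Atf5 and Gdf15 span 0.

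A dependence on transcript length ran through the whole comparison. The log2 fold change had a Spearman rho of 0.454 with the length of the longest transcript over 15978 genes, which do not vary independently. Of the members, 9 have longest transcripts between 969 and 2129 nt, below the median of 3188 nt of all genes, and Hspa5 has one of 3672 nt. The 3287 genes in that range had a median log2 fold change of -0.14. After each library was corrected for length and GC content, rho was 0.0279, the median of the members was -0.18 and that of all genes was 0.011.

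After this correction, 3 members still had all KOb/c hearts below all WT hearts, Asns, Xbp1 and Mthfd2, against 10% of genes (1604 of 15978). Xbp1 was then at -0.22 (SE 0.07, limma adjusted p = 0.268), Asns at -0.37 (SE 0.15, adjusted p = 0.317) and Mthfd2 at -0.32 (SE 0.16, adjusted p = 0.385). The genotypes overlapped in Ddit3, the shortest of the members, at -0.29 (SE 0.13). Atf4 moved to -0.20 (SE 0.13, limma adjusted p = 0.487). Atf5 and Trib3 changed sign, both to 0.06, and Chac1 was at 0.94 (SE 0.34, adjusted p = 0.291). DESeq2 with the same correction called 0 members and 2.38% of the 14428 genes that it gave an adjusted p.

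**Figure D3:**
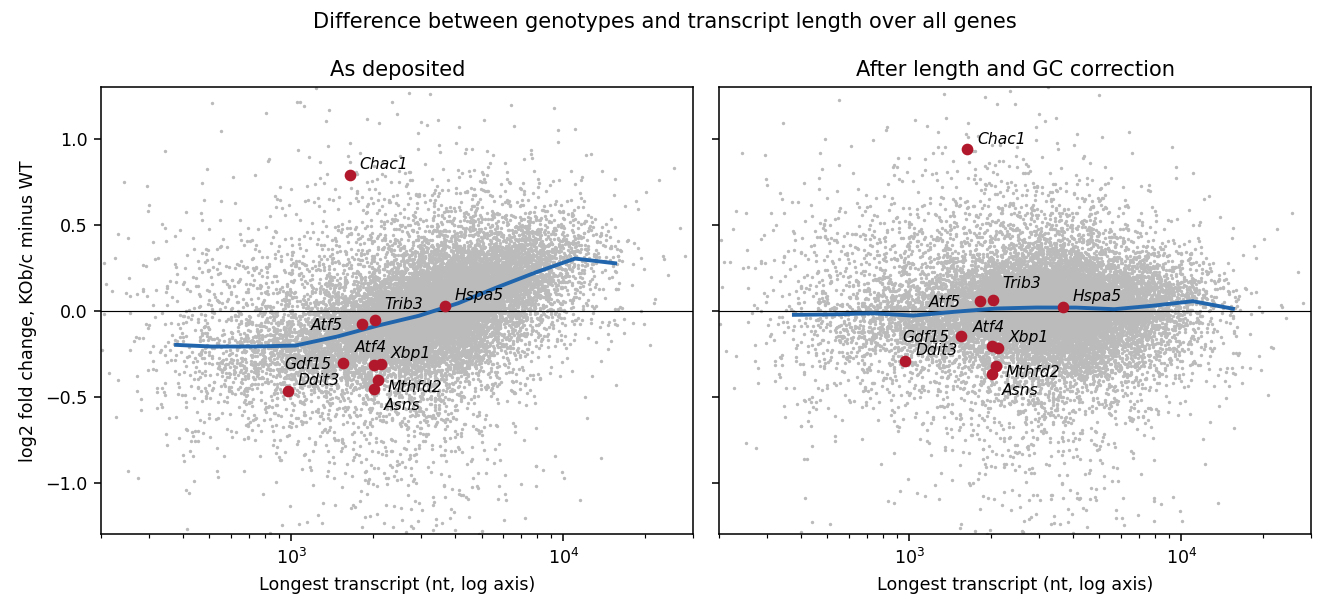
Log2 fold change (KOb/c minus WT) of all genes with a known length against the length of the longest transcript (nt, log axis), as deposited (left) and after the length and GC correction (right); grey points are genes, the blue line is the median in bins of length, red points are the 10 members, and the vertical axis stops at -1.3 and 1.3. The line climbs with length on the left and is nearly flat on the right, and most members sit below it in both.

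The members did not vary alike from heart to heart. Over the 6 libraries, which share their genotype difference and their scaling, the log2 values of Ddit3 had a Pearson r of 0.95 with those of Atf4, Asns had 0.84 and Mthfd2 0.79. With each genotype's mean taken out, r was 0.88 for Ddit3, 0.61 for Asns and 0.52 for Mthfd2. In the WT hearts all 4 of these genes were highest in replicate 1 and lowest in replicate 2. Hspa5 went the other way, with r = -0.73 and -0.89 within genotypes, and Xbp1 had r = 0.46 and -0.45 within genotypes. Chac1 was at -0.17, and 0.64 within genotypes. Atrial markers (Sln, Myl7, Myl4 and Nppa) were summed as a rough guide to how much atrium a sample held, which was not measured otherwise. The summed markers were 15430, 73940 and 88185 normalised counts in KOb/c and 24703, 87282 and 109119 in WT hearts. Replicate 1 of each genotype, which had the least of them, had the most Atf4 within its genotype. Replicate 3 of each genotype, which had the most of them, was the middle heart of its genotype in Atf4, and replicate 2 the lowest. The part of atrial content in the values of Atf4 was not tested. These are descriptions over 6 hearts, and no test was made.

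Among 135 genes of 10 related lists that are no members, those whose log2 values were most like Atf4 were Htra2, a protease of the mitochondrial intermembrane space (r = 0.95), Serp1, a small ER membrane protein of the translocon (r = 0.91), and Pck2, the mitochondrial PEP carboxykinase (r = 0.78). Htra2 was at 1266.4, 1204.3 and 1251.4 normalised counts in KOb/c and at 1404.5, 1306.7 and 1361.1 in WT hearts. Serp1 was at 1624.6, 1547.5 and 1560.9 in KOb/c and at 1815.3, 1695.4 and 1717.9 in WT hearts. Both were lower in every KOb/c heart, at -0.13 (SE 0.07, limma adjusted p = 0.277) for Htra2 and -0.14 (SE 0.06, adjusted p = 0.218) for Serp1. Pck2 differed less, at -0.07 (SE 0.09, adjusted p = 0.673). The correlation that picked these genes includes the genotype difference of Atf4, so the choice itself favoured genes that are lower in KOb/c hearts.

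The wider pathway was then counted beside the members. The lists hold 140 such genes, of which Ern2, Slc7a11, Slc7a3, Fgf21 and Derl3 were not in the table. Of the 135 measured, limma called 0, 17 (12.6%) had all KOb/c hearts below all WT hearts and 22 (16.3%) had all above, and their median log2 fold change was 0.02. DESeq2 called 7 lower and 10 higher, beside 5.03% and 8.22% of the 11979 genes that it gave an adjusted p. The shares of 12.6% and 16.3% are near the backgrounds of 14.6% and 15.6% given above, and they run in both directions. The same backgrounds, for lower and for higher, apply to the count of each list below before the length and GC correction. After it, 1604 of 15978 genes were lower in every KOb/c heart and 1785 were higher.

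Upstream of Atf4, 2 of 18 genes of the stress kinases and the eIF2 machinery were lower in every KOb/c heart and 1 was higher, with a median of 0.01. The lower ones were Eif2s1 and Eif2s2, the alpha and beta subunits of eIF2, both at -0.14 (SE 0.06, limma adjusted p = 0.189 and 0.193). The higher one was Eif2ak1, the haem-regulated eIF2 kinase, at 0.22 (SE 0.08, adjusted p = 0.151), which overlapped after the correction, at 0.16. Of the 18 genes, 2 were then lower in every KOb/c heart and 2 higher. DESeq2 called none of the 18 genes.

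The ER sensors had 3 of 7 measured genes higher in every KOb/c heart and 0 lower, beside 15.6% and 14.6% of all genes. After the length and GC correction 2 were higher and 1 lower, as Mbtps1, a further protease that cleaves ATF6, went from 0.04 to -0.14. Ern1, which encodes IRE1, was at 983.5, 839.4 and 873.6 normalised counts in KOb/c and 645.4, 725.6 and 699.1 in WT hearts, a log2 fold change of 0.38 (SE 0.09, limma adjusted p = 0.0834, DESeq2 adjusted p = 0.0119). Ern1 has a longest transcript of 6946 nt, and its value after the correction was 0.20 (DESeq2 adjusted p = 0.376). The transcript of its substrate Xbp1 was lower in the same hearts. Mbtps2, a protease that cleaves ATF6 in the Golgi, was at 0.22 (SE 0.09, adjusted p = 0.181). DESeq2 also called Atf6 higher, which was named after its values were seen and overlapped between the genotypes, at 0.37 in limma and 0.18 after the correction. Among 11 bZIP partners of ATF4, Creb3 was lower in every KOb/c heart at -0.18 (SE 0.08, limma adjusted p = 0.214) and Creb3l2 higher at 0.21 (SE 0.10, adjusted p = 0.234), with a median of -0.01. After the correction the genotypes overlapped in both, at -0.06 and 0.02.

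Other known ATF4 targets of metabolism stood beside Asns and Mthfd2 with no gene lower in every KOb/c heart. Of 13 genes of amino acid synthesis and one-carbon metabolism, 2 were higher in every KOb/c heart and 0 lower, with a median of 0.00. The log2 fold change was negative in 6 of the 13 genes and positive in 7, from -0.46 to 0.52. Got1, the cytosolic aspartate aminotransferase, was at 0.28 (SE 0.10, limma adjusted p = 0.156, DESeq2 adjusted p = 0.0448), and Gpt2, a mitochondrial alanine aminotransferase, at 0.24 (SE 0.08, limma adjusted p = 0.128). Of 8 measured amino acid transporters, 2 were higher in every KOb/c heart. These were Slc38a2, a carrier of small neutral amino acids, at 0.20 (SE 0.06, adjusted p = 0.111), and Slc3a2, the heavy chain of several transporters, at 0.13 (SE 0.06, adjusted p = 0.241). After the length and GC correction Slc38a2, of 6116 nt, was at 0.06 (adjusted p = 0.687) and Slc3a2 at 0.18.

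The aminoacyl-tRNA synthetases, which load amino acids onto tRNAs and include many ATF4 targets, had 5 of 13 genes higher in every KOb/c heart and 0 lower, beside 15.6% and 14.6% of all genes, and limma called none. Of the 13 genes, 3 (23.1%) had a negative log2 fold change, beside 50.8% of all genes, with a median of 0.09, or 0.11 after the length and GC correction. Eprs was at 0.32 (SE 0.08, limma adjusted p = 0.0844, DESeq2 adjusted p = 0.00932) and Iars at 0.31 (SE 0.07, limma adjusted p = 0.0834, DESeq2 adjusted p = 0.00954). After the correction Eprs was at 0.20 and Iars at 0.24, and neither was called by DESeq2 (adjusted p = 0.226 and 0.112). Of 11 measured signalling targets, Eif4ebp1, an inhibitor of cap-dependent translation, was lower in every KOb/c heart at -0.27 (SE 0.08, limma adjusted p = 0.104, DESeq2 adjusted p = 0.0325), and their median was -0.01. Its genotypes overlapped after the correction, at -0.18 (DESeq2 adjusted p = 0.35).

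The ER folding machinery, to which Hspa5 belongs, had values on both sides. Of 20 chaperones and folding enzymes, 4 were lower in every KOb/c heart and 2 higher, with a median of 0.01. After the length and GC correction 3 were lower and 5 higher. Sdf2l1, a partner of BiP, was at -0.53 (SE 0.23, limma adjusted p = 0.206), and Creld2, an ER stress-induced folding factor, at -0.43 (SE 0.12, limma adjusted p = 0.0992, DESeq2 adjusted p = 0.0266). Canx, the lectin chaperone calnexin, was at 0.28 (SE 0.08, limma adjusted p = 0.0961, DESeq2 adjusted p = 0.0186), and Sil1, a nucleotide exchange factor of BiP, at 0.08 (SE 0.07, limma adjusted p = 0.562). Sdf2l1 and Creld2 have longest transcripts of 1108 and 1366 nt, and their values after the correction were -0.34 and -0.27. Canx was then at 0.25, and DESeq2 called neither Creld2 nor Canx (adjusted p = 0.301 and 0.131).

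Of 24 measured genes of ER-associated degradation and translocation, 7 were lower in every KOb/c heart and 6 higher, beside 14.6% and 15.6% of all genes. After the length and GC correction 6 were lower and 6 higher. Sec61b and Sec61g, small subunits of the translocon, were at -0.51 (SE 0.12, limma adjusted p = 0.0844) and -0.39 (SE 0.13, adjusted p = 0.118). Wfs1, an ER membrane protein of calcium handling, was at 0.46 (SE 0.09, adjusted p = 0.0815), and Sel1l, the adaptor of the degradation ligase, at 0.39 (SE 0.09, adjusted p = 0.0815). After the correction Sec61b was at -0.31, Sec61g at -0.28, Wfs1 at 0.48 and Sel1l at 0.22. Of 12 genes of the mitochondrial unfolded protein response, 2 were lower in every KOb/c heart, Clpp, a matrix protease, at -0.23 (SE 0.07, limma adjusted p = 0.101) and Htra2, given above. Both were at -0.04 after the length and GC correction, and the genotypes then overlapped. Of the 12 genes, 1 was lower in every KOb/c heart after this correction. After the length and GC correction, DESeq2 called 4 of the 135 genes, beside 2.38% of the 14428 genes that it gave an adjusted p. Wfs1, Got1 and Os9 were higher and Ssr4 lower, of which Os9 and Ssr4 were named after their values were seen.

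**Figure D4:**
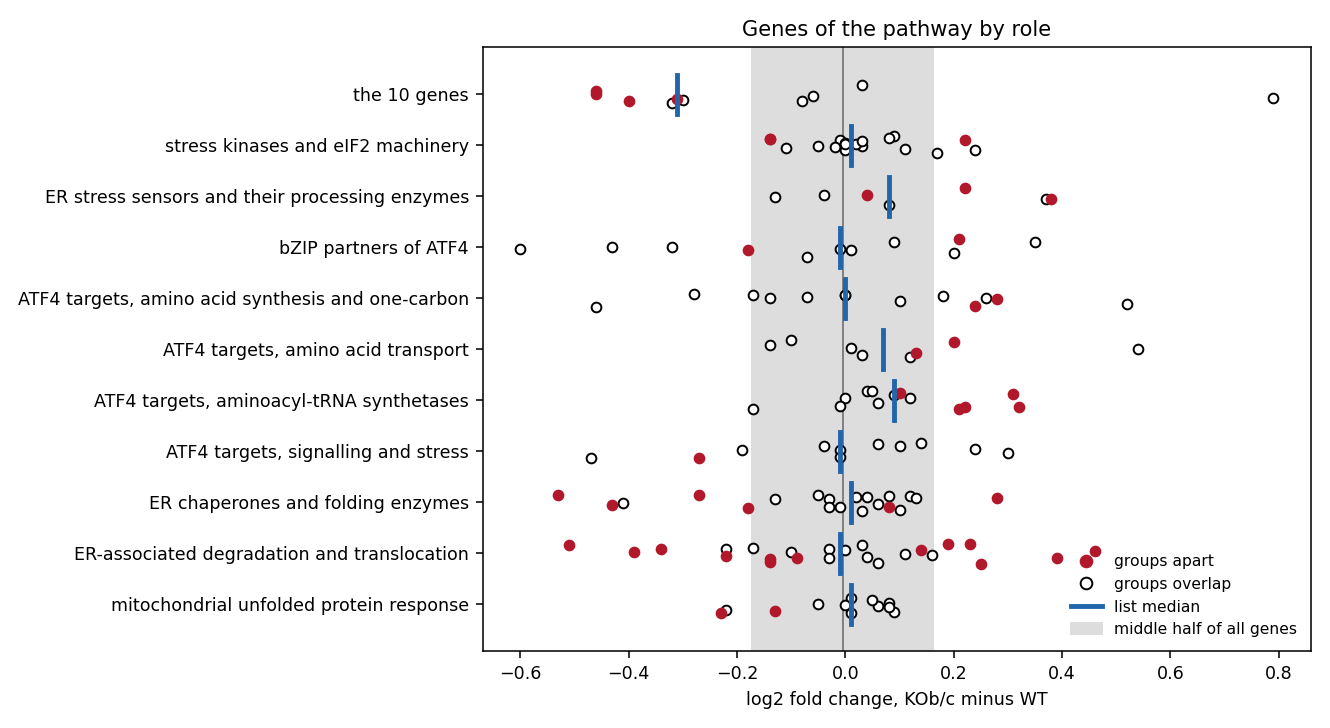
Log2 fold change (KOb/c minus WT) of every tested gene of the 10 related lists and of the 10 members, one row per list; points are genes, filled where the genotypes do not overlap, blue marks are medians, and the grey band holds the middle 50% of all genes tested. The members have a median of -0.31, while the medians of the other lists lie between -0.01 and 0.09.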

How the data were processed

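RNAseq was measured in 3 KOb/c and 3 WT hearts. The submitters' processing notes name Trimmomatic 0.36, STAR 2.5.2b, featureCounts of Subread 1.5.2, DESeq2 and GRCm38, and the strand setting of the counting is not given in the sources used here. The authors deposited a normalized signal: reads per gene over a size factor of the library. Each value was a whole multiple of 1 read (tolerance 0.01), so reads were recovered for the count tests. Counting errors are those of single hearts and cover counting only. Identifiers were matched to GENCODE M21 symbols, for 15980 of 16018. The labels do not say more about the replicates than that they are different mice.

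log2(normalized count + 1) was compared with limma 3.58.1 (R 4.3.3, two-sided), using a variance trend. The 16016 genes whose mean reached 10 were tested, and p-values were adjusted by Benjamini-Hochberg, with 0.05 as the threshold. This scale understates the fold change of low genes. DESeq2 1.42.0 and edgeR 4.0.16 on recovered reads, pseudocounts of 0.5 and 5, other filters and scalings, a replicate block, each library left out, and a spline correction (5 degrees of freedom each) for transcript length and GC content were alternatives. DESeq2 with that correction was added after seeing the data. So were limma with the correction and DESeq2 without it, each without KOb/c replicate 2. On simulated counts with 200 of 16016 genes changed by 1 on the log2 scale, limma recovered 90.5% with 8 false calls, and DESeq2 91.5% with 12. These counts held no length trend, and the members ran only from -0.46 to 0.79 in the main fit. The recovery therefore does not carry over to changes of the members' size.

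Named are all members, Slc4a4, from each list the genes past the threshold or, where none passed, the 2 largest positive and 2 largest negative changes among genes whose groups did not overlap, and the 3 list genes most correlated with Atf4. The members and lists were chosen with earlier results of these data known.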

Additional observations from a re-analysis of the deposited data

How the results depend on the processing

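The count of genes called depends on the tool. Where limma called 0 genes, DESeq2 called 1587 genes, 4 members and 17 of the 135 pathway genes, or 1405, 3 and 12 without its filtering and outlier handling. With the length and GC correction DESeq2 called 343 genes, 0 members and 4 pathway genes. Without the correction and without KOb/c replicate 2 it called 1195, 2 and 9. limma called 0 to 3 genes as each library was left out in turn, the 3 being Nppb (-1.86), Slc4a4 (-1.51) and Doc2g (-0.85) without KOb/c replicate 2, chosen after their values were seen, and 2 of these, Nppb and Slc4a4, with the correction as well. The cause was not tested. Members whose genotypes did not overlap numbered 4 to 7 as each library was left out, with 7 without WT replicate 3. With fewer hearts any gene is less likely to overlap, and the share over all genes was not computed for these counts. Atf5 turned to 0.06 with the length and GC correction in each fit that used it. Trib3 turned to 0.06 with it, to 0.02 with it and without KOb/c replicate 2, and ran from -0.12 to 0.01 as libraries were left out. Hspa5 turned to -0.04 on rescaling to the same total, to -0.01 with quantile normalization, with DESeq2 without KOb/c replicate 2 and with the correction without it, and ran from -0.01 to 0.08 as libraries were left out. The other 7 members kept their direction in every alternative. With the replicate number as a block limma called 0 genes and 0 members, with 3924 genes at an unadjusted p under 0.05. Same-numbered hearts had correlations of 0.227, 0.072 and -0.029 in their deviations from the genotype means. Differently numbered hearts had -0.183 to 0.155, and whether the numbers pair the mice cannot be told from these values. Depth limits Gdf15 most, and Trib3, Asns and Mthfd2 next.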
